A study of Mus musculus with 12 samples.

Results

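Chromatin accessibility was examined at the loci of 9 transcription factor genes that promote the adipogenic fate: *Cebpb*, *Cebpd*, *Cebpa*, *Pparg*, *Klf4*, *Klf5*, *Ebf1*, *Ebf2* and *Zfp423*. The cells were hernia-associated fibroblasts (HAFs), primary cultures from the lower abdominal muscle (LAM) of Aromhum mice, and the assay was ATAC-seq, in which a transposase places sequencing adapters into open DNA. Each locus was the gene body (GENCODE M21) plus 50000 bp upstream, and a peak belonged to a locus if its summit lay within it. The 9 genes were chosen by name out of 21938 protein-coding genes. Their loci spanned 1495193 bp and held 480 of the 658361 peaks in the 12 lists.

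By the labels all libraries came from Aromhum mice, which express the human aromatase gene and so convert androgen to estrogen in muscle. Vehicle cells received ethanol and DMSO, E2 cells received 10 nM estradiol (E2), E2 plus fulvestrant cells received 10 nM E2 with 100 nM fulvestrant, an estrogen receptor antagonist that leads to receptor degradation, and fulvestrant cells received 100 nM fulvestrant alone. The labels give 1 hour of treatment and 3 libraries per treatment. By the methods of the study the cells were first pretreated with fulvestrant or DMSO before E2 or ethanol was given, so exposure to fulvestrant was longer than that hour. The methods of the study state that male mice were used, but no label gives the sex. No label ties a library to an animal, so the spread given below is the spread between libraries, which may be technical. Cultures of mice lacking the transgene were not analysed here.

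Fat cell formation runs through a cascade. C/EBPβ and C/EBPδ appear first after an adipogenic stimulus, together with KLF4. C/EBPβ and C/EBPδ induce KLF5, C/EBPα and the nuclear receptor PPARγ. C/EBPα and PPARγ then hold each other on and switch on the genes of the mature adipocyte. EBF1, EBF2 and ZFP423 act in committed progenitors, with EBF2 marking the brown and beige lineage. Muscle fibroblasts share markers with fibro-adipogenic progenitors, the cells that form fat within injured muscle.

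The libraries did not resolve genes equally. A gene was said to have a promoter call in a library if a peak summit lay within 3000 bp of any of its transcript starts. The share of all coding genes with such a call was between 53.7% and 62.7% in 5 libraries (vehicle 1, vehicle 3, E2 1, E2 plus fulvestrant 1 and fulvestrant 1) and between 17.3% and 44.3% in the other 7. These 5 samples came from all 4 treatments but included every replicate 1 library, and replicate 1 libraries held 22 to 36 Y chromosome peaks against 854 to 1148 in the others. Whether replicate 1 came from other mice than replicates 2 and 3 is not given in the sources used here. The cause of its few Y chromosome peaks in a study of male mice was not tested. The lists ranged from 30062 to 110724 peaks, and the background level recovered from them, a measure of relative depth, from 0.713 to 1.42 tags per window. A region missing from a list is therefore not shown to be closed.

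Promoters of the marker genes were read against the labelled cell type. Among 11 fibroblast and fibro-adipogenic progenitor genes, 7 had a promoter call in 6 or more libraries, from *Vim* in 10 to *Lum* in 3. Of 8 myogenic genes 4 did, from *Ckm* in 8 to *Myod1* and *Pax7* in 0. The other satellite cell and myoblast genes of that list were called more often, *Cdh15* in 6 libraries, *Myog* in 4 and *Myf5* in 1. Endothelial genes reached 6 libraries in 1 of 5 cases, and immune and epithelial genes in 0 of 6 and 0 of 4. Among all coding genes, 45.2% reached 6 libraries.

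The strongest and the most recurrent regions at the loci are shown by sequence, as 201 bp of mm10 centred on the summit of the strongest peak and read 5′ to 3′ along the gene. Capitals mark matches to short motifs searched on both strands: C/EBP (TTGCNNAA), AP-1 (TGANTCA), the CACCC box bound by KLF proteins (CCACCC), the GC box (GGGCGG), the CCAAT box (CCAAT) and TEAD (GGAATG). EBF (TCCC and GGGA, 2 bases apart), the PPARγ direct repeat (AGGTCA and AGGTCA, 1 base apart), the estrogen response element (AGGTCA and TGACC, 3 bases apart) and CTCF were searched as well. The first 4 windows lie just upstream of the starts of the genes with the strongest promoter peaks.
Cebpa promoter (chr7:35119018-35119218, plus strand): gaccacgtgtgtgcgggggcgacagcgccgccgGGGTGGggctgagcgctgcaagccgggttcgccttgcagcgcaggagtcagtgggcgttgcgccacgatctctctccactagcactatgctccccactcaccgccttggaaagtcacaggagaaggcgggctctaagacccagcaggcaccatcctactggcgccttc
Cebpd promoter (chr16:15886837-15887037, plus strand): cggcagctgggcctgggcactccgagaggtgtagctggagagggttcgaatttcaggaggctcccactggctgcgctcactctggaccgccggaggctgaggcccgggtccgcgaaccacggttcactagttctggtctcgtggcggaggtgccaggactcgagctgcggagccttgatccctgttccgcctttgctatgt
Klf4 promoter (chr4:55532595-55532795, minus strand): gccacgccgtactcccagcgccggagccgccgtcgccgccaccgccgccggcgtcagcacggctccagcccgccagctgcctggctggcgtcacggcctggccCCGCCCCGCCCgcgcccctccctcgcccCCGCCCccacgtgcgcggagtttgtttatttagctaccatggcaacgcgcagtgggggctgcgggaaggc
Klf5 promoter (chr14:99298473-99298673, plus strand): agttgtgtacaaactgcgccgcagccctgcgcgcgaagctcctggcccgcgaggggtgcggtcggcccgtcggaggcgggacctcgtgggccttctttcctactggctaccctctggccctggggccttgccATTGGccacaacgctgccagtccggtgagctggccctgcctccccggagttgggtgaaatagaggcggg

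The next 3 are distal. The *Pparg* window was the recurrent distal region of the adipogenic master regulator, and the first *Ebf2* window was the strongest distal region of any of the 9 genes. The second *Ebf2* window was called only in libraries without fulvestrant.
Pparg intron (chr6:115485683-115485883, plus strand): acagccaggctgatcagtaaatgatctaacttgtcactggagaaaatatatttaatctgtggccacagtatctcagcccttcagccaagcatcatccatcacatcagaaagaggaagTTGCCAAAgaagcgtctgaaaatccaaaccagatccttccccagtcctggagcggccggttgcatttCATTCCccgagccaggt
Ebf2 upstream, far (chr14:67188764-67188964, plus strand): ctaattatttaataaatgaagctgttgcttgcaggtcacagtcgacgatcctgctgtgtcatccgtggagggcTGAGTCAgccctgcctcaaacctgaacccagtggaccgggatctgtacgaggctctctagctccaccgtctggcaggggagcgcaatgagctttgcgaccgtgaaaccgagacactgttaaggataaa
Ebf2 upstream, near (chr14:67220385-67220585, plus strand): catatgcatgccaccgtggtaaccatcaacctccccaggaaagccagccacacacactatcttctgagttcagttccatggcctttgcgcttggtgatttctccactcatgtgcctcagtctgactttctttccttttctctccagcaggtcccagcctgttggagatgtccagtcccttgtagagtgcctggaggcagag

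The *Klf4* window held 3 GC boxes, 2 of them overlapping, *Klf5* held a CCAAT box, *Cebpa* a CACCC box and *Cebpd* none of the motifs. The GC box occurred in 3 of the 8 recurrent promoter regions of the 9 genes, set against 46.8% of all 12545 promoter regions called in 4 or more libraries. The *Pparg* intron window held the only C/EBP match among the 7 recurrent distal regions, where 7.57% of 15839 such regions in the genome had one, and a TEAD match (10.8%). The far upstream *Ebf2* window held the only AP-1 match (8.69%). None of the 15 regions had an EBF, PPARγ, estrogen response element or CTCF match, and each of these strict forms was rare, in 0.271%, 0.0253%, 0.0316% and 0.612% of the distal regions. CACCC and CCAAT boxes stood in 15.2% and 20.8% of the distal regions and in 25.5% and 29.8% of the promoter regions. A match is a description of letters and does not show that a factor was bound.

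Promoter calls were found for all 9 genes in at least 1 library, and 7 of the 9 had them in 6 or more. This is 77.8% of the genes, set against 45.2% of all coding genes, and was not tested. *Zfp423* had a call in 9 libraries, *Klf5* in 8, *Cebpa* in 7, *Cebpb*, *Cebpd*, *Klf4* and *Ebf1* in 6 each, *Ebf2* in 4 and *Pparg* in 1. Read within the 5 libraries with the highest shares, 5 of the 9 genes (*Cebpa*, *Cebpd*, *Klf4*, *Klf5* and *Zfp423*) had a call in every one, where 40.0% of all coding genes did. The calls of *Zfp423* fell on several distant starts, and no single one of these was called in all 5. By library, the number of the 9 genes called was 9, 4 and 7 with vehicle, 7, 1 and 1 with E2, 6, 3 and 3 with E2 plus fulvestrant, and 7, 5 and 0 with fulvestrant. It was between 6 and 9 in the 5 libraries named above and between 0 and 5 in the other 7, and within each treatment the former were the higher. The count of 7 genes fell to 3 without vehicle 1 or E2 1. It fell to 4 without vehicle 3, E2 plus fulvestrant 1 or fulvestrant 1, and to 1 with peaks of −log10 q of at least 1.3. The limit was kept at 6 libraries when 1 was left out, and *Cebpb*, *Cebpd*, *Klf4* and *Ebf1* stood at exactly 6. The share of all coding genes under these settings is not given, so the falls are not set against it.

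**Figure D1:**
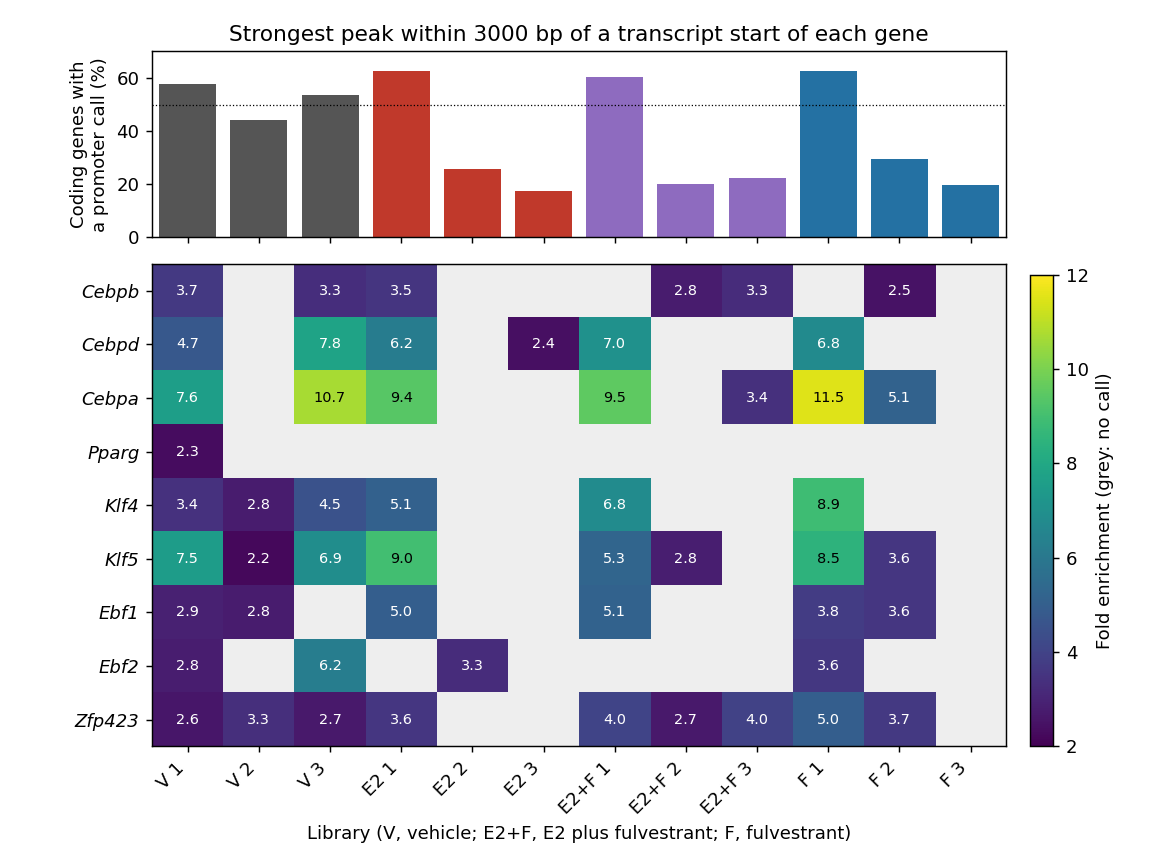
Top, bars give the share (%) of 21938 protein-coding genes with a promoter call in each library, coloured by treatment, with a dotted line at 50%. Bottom, each cell gives the fold enrichment of the strongest peak within 3000 bp of a transcript start of the gene (rows) in the library (columns), grey where no peak was called. *Cebpa*, *Cebpd*, *Klf4* and *Klf5* are strongest in the 5 libraries above the line (replicate 1 of each treatment and vehicle 3), and *Pparg* has a single weak call.

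*Cebpb* (ENSMUSG00000056501.3, chr2:167688915-167690418), the early C/EBP, had no recurrent region at its own start. Its 6 promoter calls were scattered, with the strongest peak of each library between 140 and 2928 bp from the start. Fold enrichment, the pileup of tags at the summit over the local background with 1 tag added to both, was 3.67 in vehicle 1, 3.31 in vehicle 3, 3.55 in E2 1, 2.75 and 3.27 in E2 plus fulvestrant 2 and 3, and 2.50 in fulvestrant 2. These values lay close together and rested on 4 to 11 tags. The only recurrent region of the locus, chr2:167661558-167662130, was 27088 bp upstream at the start of *Tmem189*, in 5 libraries.

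*Cebpd* (ENSMUSG00000071637.5, chr16:15887286-15891031), which acts beside *Cebpb*, differed in having a recurrent promoter region, chr16:15886679-15887957, with its summit 349 bp upstream. It was called in exactly the 5 libraries with the highest shares. Fold enrichment there was 4.74 in vehicle 1, 7.81 in vehicle 3, 6.21 in E2 1, 7.05 in E2 plus fulvestrant 1 and 6.79 in fulvestrant 1, from 8 to 24 tags. The single libraries of E2, E2 plus fulvestrant and fulvestrant lay between those of vehicle. Vehicle 1 had the lowest background of the 12 libraries, 0.713 tags per window. The part of depth in its low values here, at *Klf4* and at *Ebf2* was not tested. A weak call of 4 tags in E2 3, 1716 bp inside the gene and 586 bp from the start of another transcript, made the sixth library. The other recurrent region of the locus, chr16:15862647-15863724, stood 23915 bp upstream at the start of *Mzt2*, in 5 libraries, at 2.88 to 4.81.

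*Cebpa* (ENSMUSG00000034957.10, chr7:35119293-35121928), which sustains the adipocyte state with *Pparg*, carried the strongest promoter peak of the 9 genes. The region chr7:35118382-35119514, with its summit 175 bp upstream, was called in 7 libraries. Fold enrichment was 7.59 and 10.7 in vehicle 1 and 3, 9.39 in E2 1, 9.50 and 3.37 in E2 plus fulvestrant 1 and 3, and 11.5 and 5.14 in fulvestrant 1 and 2. The peak of fulvestrant 1 held 44 tags, with a −log10 p of 36.4, and ranked in the top 1.66% of its list, whereas that of E2 plus fulvestrant 3 held 6 tags. The libraries of E2 plus fulvestrant and of fulvestrant thus lay far apart within a treatment, whereas the 5 libraries with the highest shares kept between 7.59 and 11.5 across treatments.

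*Pparg* (ENSMUSG00000000440.12, chr6:115360951-115490399) stood at the other end. Its only promoter call was in vehicle 1, 480 bp from the nearest start, with a fold enrichment of 2.34 from 3 tags, and ranked at 96.4% of that list. The downstream start at chr6:115422066, the promoter that adipocytes use for their own isoform, had no peak within 3000 bp in any of the 12 libraries. Recurrent regions lay farther inside the gene. A region in an intron, chr6:115485263-115486159, 124832 bp into the gene, was called in the 5 libraries with the highest shares and in no other. Fold enrichment was 2.34 in vehicle 1, 5.24 in vehicle 3, 5.19 in E2 1, 6.14 in E2 plus fulvestrant 1 and 7.63 in fulvestrant 1, with 3 to 17 tags. A second region with its summit in a *Pparg* exon, chr6:115462864-115463410, was called in the same 5 libraries, at 3.11 to 5.87, and lay 1881 bp from the start of the antisense gene Gm44079.

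*Klf4* (ENSMUSG00000003032.8, chr4:55527143-55532466) had 2 recurrent regions, both called in exactly those 5 libraries. At its promoter, chr4:55532208-55533188, with the summit 229 bp upstream, fold enrichment was 3.42 in vehicle 1, 4.51 in vehicle 3, 5.10 in E2 1, 6.84 in E2 plus fulvestrant 1 and 8.88 in fulvestrant 1. The 3 libraries with E2 or fulvestrant were above both vehicle libraries, but each stands alone for its treatment, so no spread can be set beside the difference. At the exonic region, chr4:55530111-55530658, the same libraries gave 2.34 to 3.47, with E2 1 lowest and E2 plus fulvestrant 1 highest.

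*Klf5* (ENSMUSG00000005148.8, chr14:99298691-99315036), which C/EBPβ and C/EBPδ are known to induce, had its region at chr14:99298196-99299361, with the summit 118 bp upstream. The 6 libraries that called it gave a fold enrichment of 7.53 in vehicle 1, 6.90 in vehicle 3, 8.99 in E2 1, 5.28 in E2 plus fulvestrant 1, 8.47 in fulvestrant 1 and 3.59 in fulvestrant 2. The lowest came from fulvestrant 2, and the highest from E2 1. Tags at the summit numbered 6 to 24.

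*Ebf1* (ENSMUSG00000057098.14, chr11:44617317-45008091) had a promoter region, chr11:44616595-44617429, in 5 libraries. Fold enrichment was 2.75 in vehicle 1, 5.0 in E2 1, 5.14 in E2 plus fulvestrant 1, and 3.79 and 3.59 in fulvestrant 1 and 2. Vehicle 3 lacked it, although it called 7 of the 9 promoters. A region 6247 bp upstream, chr11:44610876-44611625, was called in 7 libraries, among them E2 2 and E2 plus fulvestrant 2, with fold enrichments of 2.84 to 4.75. Both regions overlap the provisional gene model Gm37695. An intronic region, chr11:44723856-44724433, 106864 bp into the gene, gave 3.32 to 5.42 in exactly the 5 libraries with the highest shares.

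*Ebf2* (ENSMUSG00000022053.13, chr14:67233292-67430918) had 3 recurrent distal regions, more than any of the other 8 genes. The far upstream region, chr14:67188371-67189277, lies 44428 bp before the gene start, inside an intron of the noncoding gene Gm30806. Its fold enrichment was 4.95 in vehicle 1, 8.15 in vehicle 3, 6.30 in E2 1, 6.98 in E2 plus fulvestrant 1 and 6.40 in fulvestrant 1, so the other treatments fell between the vehicle libraries. The promoter region, chr14:67234085-67234725, was in 4 libraries, at 2.81 and 6.25 in vehicle 1 and 3, 3.12 in E2 2 and 3.61 in fulvestrant 1. The distal region thus exceeded the promoter region in each of the 3 libraries that called both.

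The near upstream *Ebf2* region, chr14:67219426-67220659, 12807 bp before the start, was called in 2 of 3 vehicle and 2 of 3 E2 libraries and in 0 of 6 libraries with fulvestrant. Fold enrichment was 3.37 in vehicle 1, 2.97 in vehicle 3, 2.92 in E2 1 and 4.13 in E2 2, from 5 to 8 tags, and 1 of the 4 peaks reached a −log10 q of 1.3. It was picked for this pattern after its values were seen, and the share of all regions with this split was not counted. Of the libraries with fulvestrant, only E2 plus fulvestrant 1 and fulvestrant 1 were among the 5 with the highest shares. The third distal region, in an intron, was spread differently: vehicle 1, 2 and 3, E2 1 and 3, E2 plus fulvestrant 2 and fulvestrant 3 called it, of which 4 are outside the 5 libraries with the highest shares. Its strongest value was 6.96 in vehicle 2, in the top 0.532% of that list. Of its 201 bp window 85.6% is marked as repeat in the assembly, against a mean of 45.9% over distal regions called in 4 or more libraries, and the part of this in its calls was not tested.

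*Zfp423* (ENSMUSG00000045333.15, chr8:87661810-87959595) had the most peaks, 147, but 109 of its 123 merged regions were in a single library. Its promoter calls in 9 libraries fell on several starts. The most upstream start, at chr8:87959595, had calls in 4 libraries (vehicle 2, E2 1, E2 plus fulvestrant 1 and fulvestrant 1), and the internal starts between 87803823 and 87804439 in 5. The recurrent region at the internal start, chr8:87804162-87804966, gave fold enrichments of 2.70 in vehicle 3, 3.57 in E2 1, 2.88 in E2 plus fulvestrant 1 and 5.0 in fulvestrant 1. An intronic region, chr8:87702774-87703692, 256576 bp into the gene, gave 2.73 to 4.42 in 4 libraries, 1 of each treatment. These peaks held 5 to 13 tags, against up to 44 at the *Cebpa* promoter.

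Merging the peaks of the 12 lists gave 342 regions over the 9 loci, of which 277 (81.0%) were called in a single library, against 77.7% of 435284 regions genome-wide. In 4 or more libraries were 18 regions (5.26%), near the genome-wide 6.57%. They comprised 8 at promoters of the 9 genes, 7 distal and 3 at promoters of other genes. The 5 libraries with the highest shares supplied 84.9% of their calls, 11 of the 18 were called in all 5, and 8 in those 5 and no other. The share was 87.8% at promoters of the 9 genes and 78.4% at distal regions. The 5 libraries were set apart by their promoter calls. The same shares over all regions called in 4 or more libraries were not counted, so these values are not shown to be particular to the 9 loci.

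**Figure D2:**
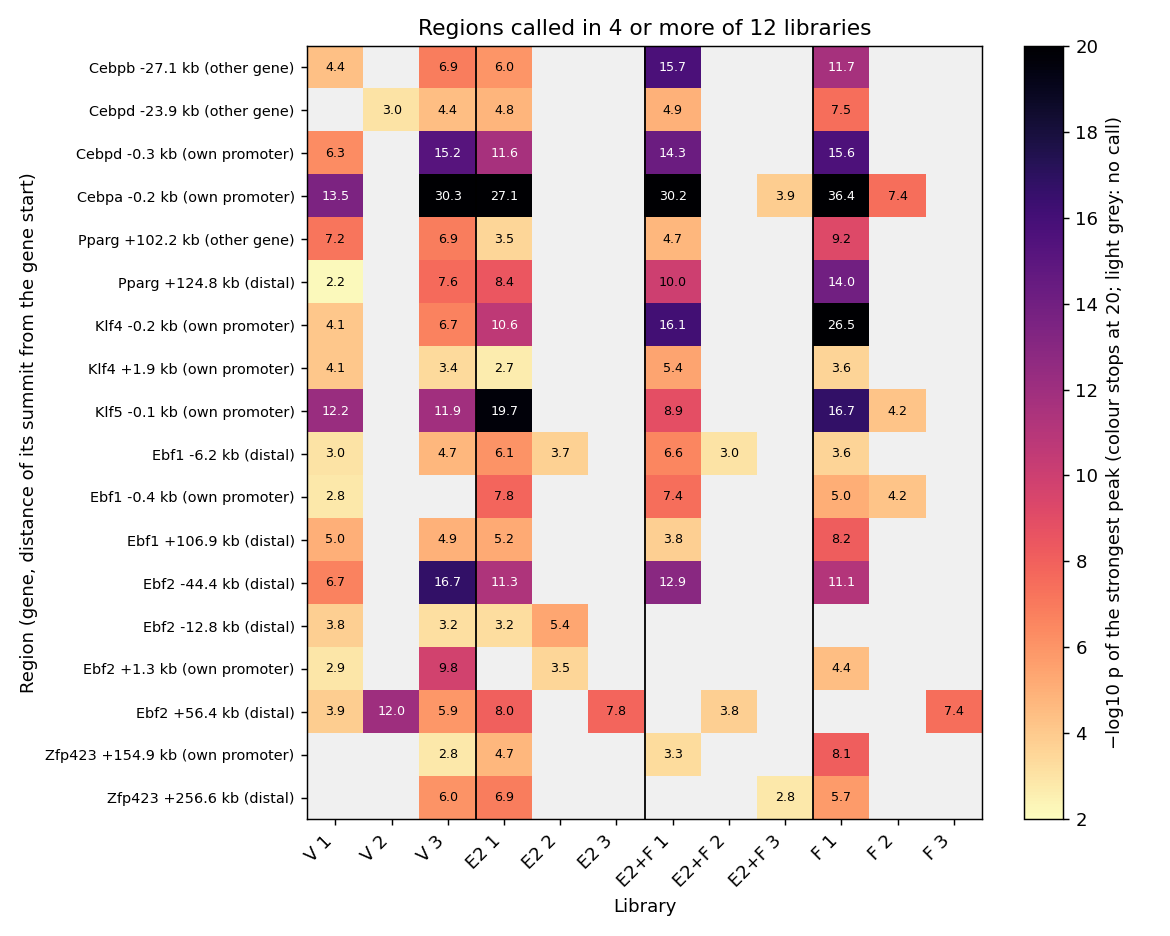
Rows are the 18 regions called in 4 or more of the 12 libraries, named by gene, by distance (kb) of the summit from the gene start and by kind; columns are libraries, split by treatment. Numbers and colour give −log10 p of the strongest peak (colour stops at 20), and light grey marks no call. Most calls stand in vehicle 1, vehicle 3 and the replicate 1 library of each other treatment, whereas the intronic *Ebf2* region at +56.4 kb was called in vehicle 2, E2 3, E2 plus fulvestrant 2 and fulvestrant 3 as well.

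**Figure D3:**
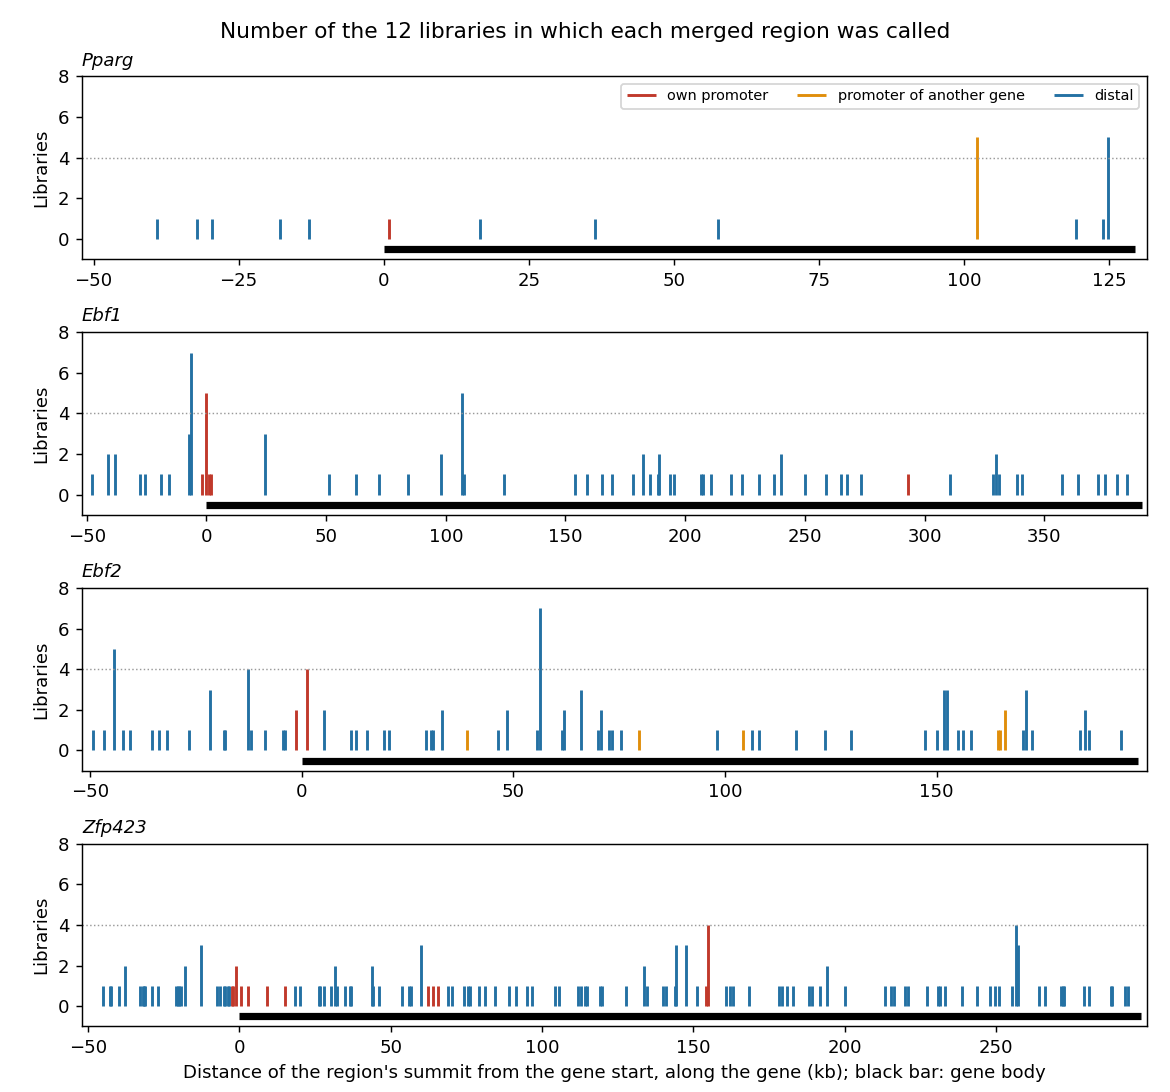
Vertical lines give, for each merged region of 4 loci, the number of the 12 libraries that called it (y axis), placed by distance (kb) of its summit from the gene start along the gene, with the gene body as a black bar and a dotted line at 4 libraries. *Pparg* has single-library regions at its start and recurrent ones at 102.2 and 124.8 kb, and *Zfp423* is filled with regions of a single library.

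The question of the treatments was whether E2 changed accessibility at these loci and whether fulvestrant countered it. Peaks per locus with E2 and with E2 plus fulvestrant overlapped for every one of the 9 genes as raw numbers, where 2.16% of 21291 coding genes with a peak did not overlap. *Pparg* had 2, 0 and 0 peaks in the E2 libraries and 3, 3 and 0 in the E2 plus fulvestrant libraries, a difference in means of -1.33 (p = 0.40 by an exact two-sided permutation test over 3 and 3 libraries). *Cebpa* had 2, 1 and 0 against 2, 2 and 3, a difference of -1.33 with an exact permutation p of 0.30. Per 10000 peaks of the library, *Cebpa* was the 1 gene of the 9 that did not overlap, at 0 to 0.254 with E2 and 0.328 to 0.895 with E2 plus fulvestrant (exact permutation p = 0.10, the smallest possible), where 8.71% of coding genes did not overlap on that scale. As raw numbers these were the 2 loci with fewer peaks under E2. The raw difference exceeded the SDs of *Cebpa* (1 with E2, 0.577 with E2 plus fulvestrant) and lay between those of *Pparg* (1.15 and 1.73). For *Cebpa* the difference was 0 with peaks of −log10 q of at least 1.3. No library had a peak over the *Cebpa* gene body alone, so that setting could not show a difference.

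Differences at the early factors were small. *Cebpb* had 3, 4 and 2 peaks with E2 against 1, 3 and 3, a difference of 0.667, and *Cebpd* 2, 1 and 1 against 2, 1 and 1, a difference of 0. *Klf4* had 3, 1 and 0 against 2, 0 and 1, and *Klf5* 1, 2 and 1 against 2, 1 and 0, a difference of 0.333 for each. Each was smaller than the SDs of both groups, or 0. *Ebf1* had 8, 6 and 6 peaks with E2 against 6, 6 and 2, *Ebf2* 12, 6 and 3 against 6, 7 and 1, and *Zfp423* 21, 12 and 7 against 19, 9 and 5, with differences of 2, 2.33 and 2.33. As raw numbers the progenitor factors thus had more peaks with E2 on average, but the ranges of the groups overlapped. The exact permutation p was 0.60, 0.60 and 0.70. Per 10000 peaks of the library the differences were 0.302, 0.164 and 0.0831, with exact permutation p of 0.50, 0.90 and 0.90. With peaks of −log10 q of at least 1.3 the raw differences were 0.667, 2.33 and -0.333. The E2 lists held 78822, 48738 and 31697 peaks, against 60924, 36350 and 33536 with E2 plus fulvestrant. The part of list length in the raw differences was not tested.

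**Figure D4:**
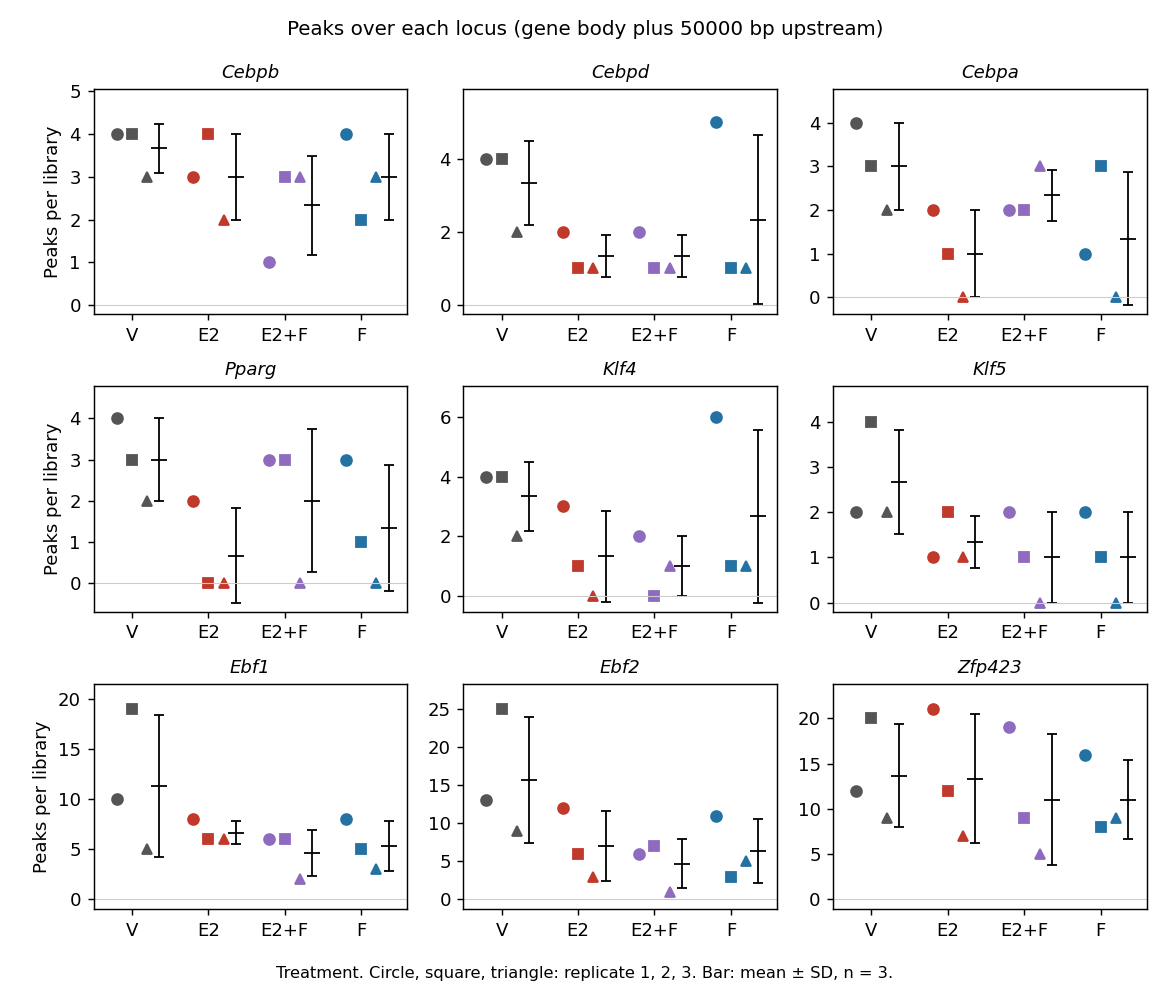
Peaks per library (y axis) over each of the 9 loci by treatment (V, vehicle; E2+F, E2 plus fulvestrant; F, fulvestrant), with circles, squares and triangles for replicates 1, 2 and 3 and the bar for mean ± SD (n = 3). In every panel E2 and E2+F overlap as raw numbers; for *Zfp423* replicate 1 is the highest library of E2, E2+F and F, at 21, 19 and 16 peaks.

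No gene passed in any of the 3 comparisons, as raw numbers or per 10000 peaks. With 3 libraries against 3 the exact test cannot go below p = 0.10, so 0 of 9 reached an unadjusted p of 0.05 and adjusted values (Benjamini-Hochberg over all coding genes with a peak) were 1.00 throughout. As raw numbers, all 9 loci had fewer peaks with E2 than with vehicle on average, with differences from -0.333 for *Zfp423* to -8.67 for *Ebf2*, and all 9 had fewer with fulvestrant, from -0.667 for *Cebpb* and *Klf4* to -9.33 for *Ebf2*. These comparisons share the vehicle libraries, among them vehicle 2 with the longest list. The vehicle lists held 77390, 110724 and 44358 peaks, against 78822, 48738 and 31697 with E2 and 73801, 31959 and 30062 with fulvestrant. The share of all coding genes with fewer peaks was not counted, so these directions are not shown to be particular to the 9 loci. *Ebf2* had 13, 25 and 9 peaks with vehicle, and *Ebf1* 10, 19 and 5, vehicle 2 being the highest library in both. In neither comparison did the raw numbers of any of the 9 genes separate the groups, where 3.43% of coding genes did for E2 and 4.80% for fulvestrant.

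The direction turned for some genes once the numbers were scaled to the length of the list. Per 10000 peaks of the library, *Zfp423* was higher with E2 (2.44 against 1.80 with vehicle) and with fulvestrant (2.56), and *Cebpb* was also higher in both, by 0.0926 and 0.204. *Ebf1* differed from vehicle by 0.00120 with E2, and *Klf4* by 0.0432 with fulvestrant, so that the sign turned for 3 genes in each comparison. On this scale 5 of the 9 genes separated E2 from vehicle, where 7.43% of coding genes did. *Pparg*, *Cebpa*, *Cebpd* and *Ebf2* were lower with E2, with differences of -0.328, -0.260, -0.185 and -0.756, and *Zfp423* was higher by 0.650. Fulvestrant separated from vehicle for 2 genes, where 8.29% of coding genes did: *Ebf2* was lower, with a difference of -0.625, and *Zfp423* was higher by 0.760. Each of these had the smallest p the exact permutation test allows, 0.10, and an adjusted value of 1.00.

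Summed over the 9 loci, libraries had 59.7 ± 25.1 peaks with vehicle, 35.7 ± 17.2 with E2, 30.3 ± 13.6 with E2 plus fulvestrant and 34.3 ± 18.8 with fulvestrant (SD, n = 3 each). Per 10000 peaks of the library these were 7.75 ± 0.376, 6.64 ± 0.292, 6.88 ± 2.02 and 7.58 ± 0.252. On this scale the E2 libraries, at 6.31 to 6.85, all lay below the vehicle libraries, at 7.37 to 8.12, while those of E2 plus fulvestrant spread from 4.77 to 8.80 around both. No p is given for a sum over chosen genes. The genes did not share this direction, with differences from vehicle of -0.756 for *Ebf2* but 0.0926 for *Cebpb*, 0.00120 for *Ebf1* and 0.650 for *Zfp423*. How often a sum over other loci separates these libraries was not counted, so the gap is not shown to be particular to the 9 loci. Of 167 regions called in any E2 or E2 plus fulvestrant library, 0 were in all libraries of one treatment and none of the other, against 0.178% genome-wide. In 2 or more E2 libraries and no E2 plus fulvestrant library were the near upstream *Ebf2* region and chr11:44575991-44576208 upstream of *Ebf1*. In the opposite direction were chr7:35074936-35075474 upstream of *Cebpa* and chr2:167657225-167657777 upstream of *Cebpb*, both in E2 plus fulvestrant 2 and 3. No peak of the last 3 regions reached a −log10 q of 1.3. The genome-wide share under this looser rule, 2 or more libraries against none, was not counted. The 0.178% holds only for all libraries against none. The regions named under the looser rule are therefore not shown to follow treatment.

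Among the replicate 1 libraries alone, which give no spread, E2 minus E2 plus fulvestrant was -1 for *Pparg*, 0 for *Cebpa* and *Cebpd*, 2 for *Cebpb*, 1 for *Klf4*, -1 for *Klf5*, 2 for *Ebf1*, 6 for *Ebf2* and 2 for *Zfp423*. Within numbers 2 and 3 the mean differences were -1.50, -2, 0, 0, 0, 1, 2, 0.500 and 2.50 for *Pparg*, *Cebpa*, *Cebpd*, *Cebpb*, *Klf4*, *Klf5*, *Ebf1*, *Ebf2* and *Zfp423*. Only *Klf5* turned sign between the sets. Without E2 1 the mean difference turned to -1.50 for *Zfp423*, -0.500 for *Klf4* and -0.167 for *Ebf2*. Outside vehicle, replicate number 1 and a high share of genes called coincide, and cannot be told apart.

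The other genes of the pathway were read by the same measure. Of 24 further positive regulators, 19 (79.2%) had a promoter call in 6 or more libraries, from *Igf1r* and *Tle3* in 11 down to *Bmp4* in 2 and *Stat5b* in 1. Of 20 inhibitors of adipogenesis, 16 (80%) did, from the repressor *Klf3* in 11 down to *Wnt10b* in 4. Of 22 genes of the mature adipocyte, 7 (31.8%) did: the lipase *Lipe* and the lipid droplet coat gene *Plin1* were called in 10, the adipokine *Adipoq* and the thermogenic *Ucp1* in 0. Promoters of activators and inhibitors were thus called about equally often, above the 45.2% of all coding genes, and the adipocyte genes lay below it, with no test made between the lists.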

How the data were processed

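ATAC-seq peak lists of 12 libraries, 3 per treatment, were used, 1 list per library, with treatment and replicate number from the labels. Per the methods of the study, reads were trimmed with Trimmomatic (version 0.39 in the submitters' processing notes), aligned to mm10 with Bowtie2, freed of duplicates with Picard (2.21.4) and passed to MACS2. In the deposited lists each peak has a fold enrichment, a ratio of the tag pileup to the local background as the authors' caller gives it. The authors also deposited a −log10 p-value and a −log10 q-value for each peak, and an integer score that is not used here. The smallest −log10 p in the lists was 2.01, so they reach down to a p-value cutoff of 0.01. Read totals are not in the lists, so pileup and background were recovered from fold enrichment and −log10 p. Replicates were not pooled by the authors.

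Peaks were assigned by summit to GENCODE M21 loci with Python 3.11.15, pandas 2.3.3 and scipy 1.17.1. Peaks that overlapped across libraries were merged into regions, and those called in 4 or more libraries are named. Every peak lay within its GRCm38 chromosome, from which sequence was read with pysam. Windows are printed for 7 of the 18 recurrent regions. Peak numbers were compared between treatments with an exact permutation test over libraries (two-sided), run on all coding genes and adjusted over them. The test was checked on simulated data, as was the motif search with planted motifs. A model of read counts in shared peaks, which the study fitted, was not run on these lists. The alternatives were peaks with a −log10 q of at least 1.3, numbers per 10000 peaks, the gene body alone, other recurrence limits, a promoter window of 1000 bp, summits joined within 250 bp, replicate blocks and leaving out each library. Of these, the within-number values, the overlap with vehicle per 10000 peaks, the count of genes called in 6 or more libraries and its alternatives and the limit to 5 libraries were added after the lists had been seen. The 9 genes and all lists were chosen with earlier results of these data known. All 9 genes were named by rule, with up to 4 list examples called in the most and fewest libraries (ties by alphabet) and up to 3 recurrent distal regions per gene. *Cdh15*, *Myog* and *Myf5* were named outside this rule.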

Additional observations from a re-analysis of the deposited data

How the results depend on the processing

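The lists hold no read counts, so a missing call is bounded by depth and library quality, and an exact permutation test of 3 libraries against 3 cannot go below p = 0.10. Most differences in peak number did not turn sign under each alternative run, where a difference that became 0 was counted as kept. The cause of the following changes was not tested. Per 10000 peaks, E2 minus E2 plus fulvestrant was -0.0172 for *Cebpb* and -0.0136 for *Klf4*, E2 minus vehicle 0.0926 for *Cebpb*, 0.00120 for *Ebf1* and 0.650 for *Zfp423*, and fulvestrant minus vehicle 0.204 for *Cebpb*, 0.0432 for *Klf4* and 0.760 for *Zfp423*, and the number of genes whose E2 and E2 plus fulvestrant values did not overlap became 1 (*Cebpa*). With peaks of −log10 q of at least 1.3, E2 minus E2 plus fulvestrant was -0.333 for *Klf4* and for *Zfp423*, the genes with a promoter call in 6 or more libraries fell to 1 and the recurrent distal regions to 4. Over gene bodies alone, E2 minus vehicle was 0.333 for *Cebpd*. In replicate 1 libraries alone, E2 minus E2 plus fulvestrant was -1 for *Klf5*, E2 minus vehicle 9 for *Zfp423*, and fulvestrant minus vehicle 1 for *Cebpd*, 2 for *Klf4* and 4 for *Zfp423*. Distal regions numbered 19 at 3 or more libraries, 2 at 6 or more, and 4 when called in at least 4 of the 5 libraries with the highest shares. Leaving out 1 library at a time, E2 minus E2 plus fulvestrant ranged from -1.50 to 6.33 for *Zfp423*, -0.500 to 1 for *Klf4*, -0.167 to 0.833 for *Klf5* and -0.167 to 4.33 for *Ebf2*, E2 minus vehicle from -4.17 to 2.83 for *Zfp423*, and fulvestrant minus vehicle from -2.33 to 0.167 for *Klf4* and -5.17 to 0.500 for *Zfp423*. Signs turned without E2 1 for *Zfp423* (-1.50), *Klf4* (-0.500) and *Ebf2* (-0.167), without E2 plus fulvestrant 3 for *Zfp423* (-0.667) and *Klf5* (-0.167) and without E2 plus fulvestrant 2 for *Klf4* (-0.167). They turned against vehicle without E2 2 (0.333), E2 3 or vehicle 2 (2.83 each) for *Zfp423* under E2, and without vehicle 2 for *Zfp423* (0.500) and fulvestrant 2 or 3 for *Klf4* (0.167 each) under fulvestrant. With the limit kept at 6 libraries, the 7 genes with promoter calls became 3 to 7. They fell to 3 without vehicle 1 or E2 1, and to 4 without vehicle 3, E2 plus fulvestrant 1 or fulvestrant 1. The distal regions became 5 to 7. The summed difference of 5.33 peaks between E2 and E2 plus fulvestrant ranged from -3.83 to 13.2. Per 10000 peaks the summed difference turned sign, to -0.234. With the replicate block, where sign flips of 3 pairs give a smallest p of 0.25, the mean differences are those of the unpaired comparison (5.33 for the sum); same-numbered libraries of these treatments correlated at 0.248, 0.0750 and 0.0592 in their deviations over genes, so the numbers were not taken as pairs.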
